A study of Mus musculus with 11 samples.

Results

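Fc receptor genes encode proteins that bind the constant part of antibodies, and 6 of them, out of 54532 genes in the count table, are described here in mouse CD8+ Tregs. They are the inhibitory receptor gene Fcgr2b, the activating receptor genes Fcgr1, Fcgr3 and Fcgr4, the signaling chain gene Fcer1g, and Fcgrt, which encodes the neonatal Fc receptor. The rows were found by gene name, and the genes were chosen on measured values, with the age difference of Fcgr2b in these libraries already known, so the age comparison of the 6 genes is a description. Calls for age are counted for them only beside the share of all genes called, and nothing is read from those counts.

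CD8+ Tregs, a small population of CD8+ T cells that restrains antibody responses, were sorted from the spleens of wild-type C57BL/6J mice as CD8+CD44+Ly49+CD122+ cells and profiled by bulk RNA sequencing. The young group (2 to 3 months) had 3 male and 3 female libraries, and the group labelled Old in the records and middle-aged in the study (10 to 12 months) had 2 male and 3 female libraries. For the sequenced cells, the study's figure legend gives single ages, 3 months and 12 months. The labels give the WT genotype for every library and name no treatment, and per the study each of the 11 libraries is an independent biological replicate. Per the study's methods, an antibody against CD16/32, the proteins of Fcgr3 and Fcgr2b, was added as a blocker to all flow cytometry stains, in every age group. The number of mice behind a library was not given in the sources used here.

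Fcγ receptors pair antibody recognition with cell signaling. Activating receptors do so through an immunoreceptor tyrosine-based activation motif (ITAM), which in mice is carried by the Fcer1g chain, and the inhibitory receptor carries an inhibition motif (ITIM) in its own tail that recruits phosphatases such as SHIP-1. The neonatal receptor is a class I-like protein that pairs with β2-microglobulin and returns antibody from endosomes to the cell surface. Among lymphocytes, Fcgr2b is best known from B cells, and Fcgr3 with Fcer1g from NK cells, while monocytes, macrophages and neutrophils carry several of these receptors.

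The ITIM of Fcgr2b and the ITAM of Fcer1g are shown as spliced coding sequence of GENCODE M21 transcripts (GRCm38, minus strand, 5′ to 3′), with the codons of the motif in capitals. The Fcgr2b stretch spans chr1:170961050-170961204 and the Fcer1g stretch chr1:171229880-171230081, each across an intron.
Fcgr2b ITIM, codons 317 to 322: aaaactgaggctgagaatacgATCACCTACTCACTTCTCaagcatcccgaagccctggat
Fcer1g ITAM, codons 65 to 79: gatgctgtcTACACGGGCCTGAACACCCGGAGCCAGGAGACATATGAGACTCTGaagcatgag
A search for the ITIM pattern found 1 match in each of the 4 coding transcripts of Fcgr2b and none in the 3 coding transcripts of Fcgr3. The pattern is short and not particular to Fcgr2b: it also matched 2 times in Fcgr1, 1 time in Fcgr4, and 1 time in each of the 2 coding transcripts of Fcer1g and the 4 of Fcgrt. The counts are per gene, so the Fcgr2b transcripts of 1020 and 879 coding bases were not told apart.

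Outside that tail Fcgr2b and Fcgr3 are close relatives, and their longest identical coding run, shown because a read from it cannot tell the genes apart, was 129 bases long. It lies at chr1:170966674-170968081 in Fcgr2b and chr1:171054167-171057792 in Fcgr3, spliced in both.
Fcgr2b and Fcgr3, shared coding run: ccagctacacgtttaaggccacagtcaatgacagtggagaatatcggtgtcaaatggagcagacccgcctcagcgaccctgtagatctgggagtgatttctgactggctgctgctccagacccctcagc
Of the distinct 31-base words in all annotated Fcgr2b transcripts, 8.15% also occurred in some other gene, including 4.15% in Fcgr3 and 2.25% in the antisense gene Gm38204, and of those of Fcgr3, 13.4% occurred in Fcgr2b. No word of Fcer1g or Fcgr1 occurred in another gene, and the shared part was 1.39% for Fcgr4 and 1.88% for Fcgrt. How the authors' counting assigned reads from the shared stretches of Fcgr2b and Fcgr3 was not given in the sources used here, so the split of reads between this pair is uncertain.

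Library totals ranged from 6135736 to 24394532 counts, and values are CPM, counts scaled to library size with TMM factors. The shallowest libraries were young male 1 (6135736 counts) and young female 1 (8421396 counts), while the middle-aged libraries had at least 17066900. T cell and gate markers (13 of 13 measured) summed to between 7139 and 12375 CPM in every library, and Cd4 stayed at or under 18.7 CPM. The library middle-aged female 2 stood apart from the rest. Its neutrophil markers summed to 3700 CPM against 21.6 to 214 CPM in the other middle-aged and 0 to 47.7 CPM in the young libraries, its monocyte and macrophage markers to 1224 CPM against at most 348 CPM elsewhere, and its mast cell and basophil markers to 139 CPM against at most 18.2 CPM. Fold changes of the receptor genes are therefore given with and without it, and so are those of listed genes that moved most when it was left out. In bulk RNA, fewer cells of a type and less RNA per cell cannot be told apart.

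Fcgr2b was higher in middle-aged CD8+ Tregs of both sexes, Fcgrt was higher by a smaller factor, and the age groups overlapped in Fcgr1, Fcgr3, Fcgr4 and Fcer1g. Of the 6 genes, 5 passed the filter on low counts, as did 13129 of all genes, and Fcgr1 did not. In edgeR's quasi-likelihood test, 1 of the 5 (Fcgr2b) was called for age at an adjusted p under 0.05, where 0.0229% of all tested genes were, and 2 (Fcgr2b and Fcgrt) at an unadjusted p under 0.05, where 2.99% were. These counts follow from how the genes were chosen. For the same 2 genes no middle-aged value fell into or under the young range, as for 1.02% of tested genes.

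Fcgr2b (ENSMUSG00000026656, chr1:170958617-170976547, minus strand) had 4.44 CPM in the lowest young library, a median of 6.95 and 8.77 CPM in the highest (mean 6.96 ± 1.64, SD, n = 6). The middle-aged libraries had 58.6 CPM in male 1, 41.0 in male 2, 46.9 in female 1, 29.7 in female 2 and 42.6 in female 3 (mean 43.8 ± 10.5, SD, n = 5). The groups did not overlap, male 1 was the highest library, and the lowest middle-aged value was that of female 2. The underlying counts ran from 32 to 187 in young and from 695 to 1235 in middle-aged libraries. The fitted log2 fold change was 2.68 (SE 0.27), a 6.41-fold difference, and 0.731% of tested genes had a higher one. It was 2.67 (SE 0.46) in males alone, 2.70 (SE 0.42) in females alone and 2.77 (SE 0.28) without middle-aged female 2. With the counts of Fcgr2b and Fcgr3 added, which removes the uncertain split of shared reads, the log2 fold change of the sum was 1.35 and the sum was not called. The sum holds all reads of Fcgr3, which had a mean of 15.5 CPM in young libraries, above that of Fcgr2b. The value of 1.35 is therefore not a fold change of Fcgr2b alone.

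**Figure D1:**
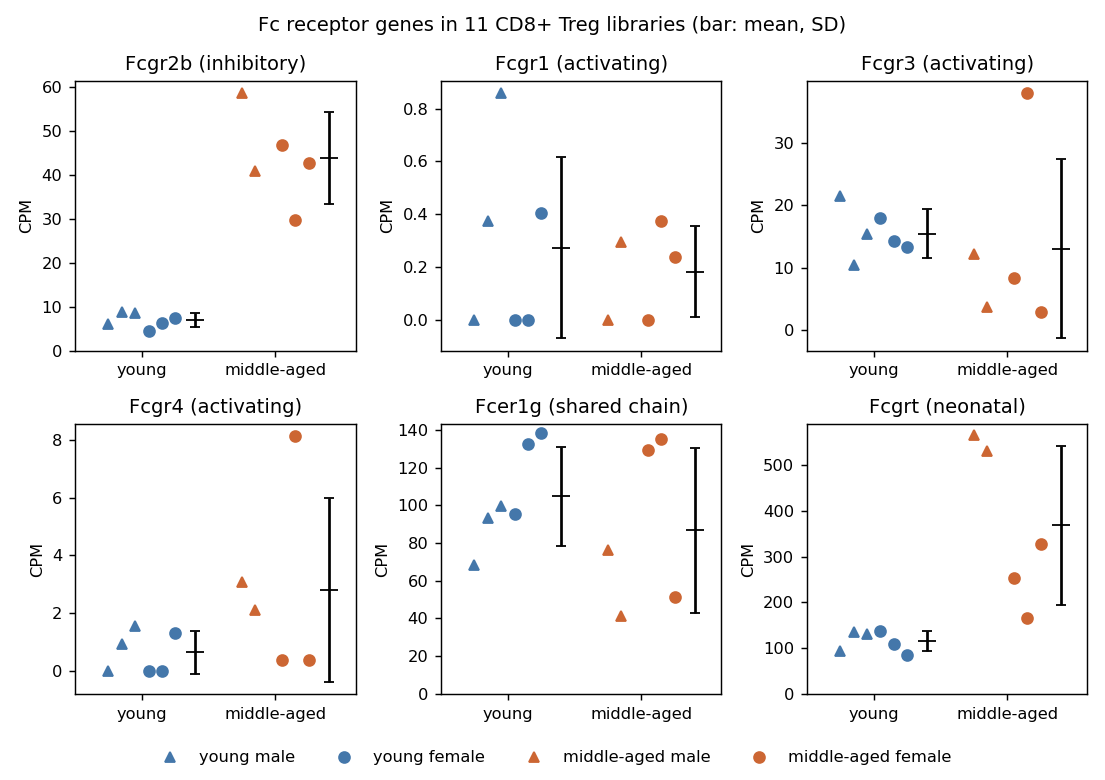
Each panel plots 1 gene in CPM (vertical axis, linear) for the young and middle-aged libraries. Triangles are male and circles female libraries, and the bar beside each group gives its mean and SD. Fcgr2b and Fcgrt have no overlap between ages, and the highest Fcgr3 (37.9 CPM) and Fcgr4 (8.12 CPM) points are both middle-aged female 2.

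Fcgr3 (ENSMUSG00000059498, chr1:171051174-171064935, minus strand) encodes FcγRIII, the low-affinity activating receptor of NK and myeloid cells. In young libraries it ran from 10.4 to 21.5 CPM with a median of 14.8 (mean 15.5 ± 3.85, SD, n = 6). In middle-aged libraries it was 12.2 CPM in male 1, 3.77 in male 2, 8.41 in female 1, 37.9 in female 2 and 2.98 in female 3. Male 2, female 1 and female 3 lay below every young library and female 2 lay above them all, so the groups overlapped on both sides. The log2 fold change was -0.35 (SE 0.61) over 11 libraries and -1.19 (SE 0.47) without middle-aged female 2.

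Fcgr4 (ENSMUSG00000059089, chr1:171018920-171029761, plus strand), an activating receptor of monocytes, macrophages and neutrophils, was near the detection limit. In young libraries it had a count of 0 in male 1, female 1 and female 2, and 0.938, 1.57 and 1.32 CPM in male 2, male 3 and female 3. In middle-aged libraries it had 3.09 CPM in male 1, 2.12 in male 2, 0.370 in female 1, 8.12 in female 2 and 0.379 in female 3. Female 2 was the highest, and the other 2 middle-aged females lay within the young range. A count of 0 allows up to 0.119 to 0.542 CPM by library, taken as 3 counts and covering counting error only. The log2 fold change was 2.18 (SE 1.30) over all libraries and 0.74 (SE 1.28) without middle-aged female 2.

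Fcgr1 (ENSMUSG00000015947, chr3:96282909-96293969, minus strand) encodes the high-affinity receptor of monocytes and macrophages. Its counts ran from 0 to 18 in young and from 0 to 9 in middle-aged libraries, with 0 in young male 1, young females 1 and 2, middle-aged male 1 and middle-aged female 1. The highest level was 0.858 CPM, in young male 3, and with counts this low no difference with age was computed.

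Fcer1g (ENSMUSG00000058715, chr1:171229572-171234365, minus strand), the ITAM chain that the activating receptors need, ran from 68.5 to 138 CPM in young libraries with a median of 97.7 (mean 105 ± 26.2, SD, n = 6). The middle-aged values were 76.4 CPM in male 1, 41.1 in male 2, 130 in female 1, 135 in female 2 and 51.4 in female 3 (mean 86.8 ± 43.7, SD, n = 5). Male 2 and female 3 lay below every young library, and the other middle-aged libraries lay within the young range. The log2 fold change was -0.37 (SE 0.29), and -0.50 (SE 0.31) without middle-aged female 2.

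Fcgrt (ENSMUSG00000003420, chr7:45092990-45103851, minus strand) ran from 86.0 to 138 CPM in young libraries with a median of 120 (mean 115 ± 22.4, SD, n = 6). The middle-aged values were 566 CPM in male 1, 530 in male 2, 253 in female 1, 166 in female 2 and 328 in female 3 (mean 369 ± 174, SD, n = 5). The age groups did not overlap, and the 2 middle-aged males were above the 3 females. The log2 fold change was 1.63 (SE 0.27), a 3.10-fold difference, and 1.80 (SE 0.26) without middle-aged female 2. B2m, the gene of its partner β2-microglobulin, had a log2 fold change of 0.29 (SE 0.27, adjusted p = 1.00), and the Fcgrt to B2m ratio of CPM was 0.0295 to 0.0497 in young and 0.0463 to 0.133 in middle-aged libraries, or 0.0688 to 0.133 without middle-aged female 2, which ended the overlap.

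Levels were compared between genes only per length, in CPM per kb of the gene length given in the table. In young libraries the order was Fcer1g (120 ± 30.0 CPM per kb), Fcgrt (54.8 ± 10.7), Fcgr3 (8.91 ± 2.22), Fcgr2b (1.20 ± 0.28), Fcgr4 (0.509 ± 0.580) and Fcgr1 (0.105 ± 0.133, each SD, n = 6). The ranges of the first 4 did not overlap, and those of Fcgr2b and Fcgr4, and of Fcgr4 and Fcgr1, did. In middle-aged libraries the order was Fcgrt (175 ± 82.7 CPM per kb), Fcer1g (99.3 ± 50.02), Fcgr2b (7.56 ± 1.81), Fcgr3 (7.52 ± 8.28), Fcgr4 (2.24 ± 2.54) and Fcgr1 (0.0700 ± 0.0667, each SD, n = 5). There Fcgrt overlapped Fcer1g, Fcgr3 overlapped both Fcgr2b and Fcgr4, and Fcgr2b overlapped Fcgr4. The overlaps of Fcgr2b came from middle-aged female 2: without it Fcgr2b began at 7.08 CPM per kb, Fcgr3 ended at 7.03 (mean 3.94 ± 2.48, SD, n = 4) and Fcgr4 at 2.46. Among all tested genes, the mean level of Fcgr2b lay above 22.7% of genes in young and 57.5% in middle-aged libraries, and that of Fcer1g above 95.6% and 94.8%.

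The balance of inhibitory to activating receptor RNA was taken in each library as Fcgr2b over the sum of Fcgr1, Fcgr3 and Fcgr4, all per length. It was 0.0857 in young male 1, 0.220 in male 2, 0.141 in male 3, 0.0744 in female 1, 0.134 in female 2 and 0.146 in female 3. In middle-aged libraries it was 1.07 in male 1, 1.78 in male 2, 1.57 in female 1, 0.180 in female 2 and 3.49 in female 3. In 4 of 5 middle-aged libraries the inhibitory receptor was thus above the summed activating ones per length, and female 2, with its high Fcgr3, stayed within the young range. The sum includes Fcgr3, so this ratio also rests on the uncertain split of reads between Fcgr2b and Fcgr3. It depends as well on their table lengths, 5790 bases for Fcgr2b and 1736 for Fcgr3. Against the Fcer1g chain the ratio was 0.00701 to 0.0142 in young and 0.0331 to 0.151 in middle-aged libraries, without overlap. These ratios use the same age contrast that chose the genes and are a description.

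**Figure D2:**
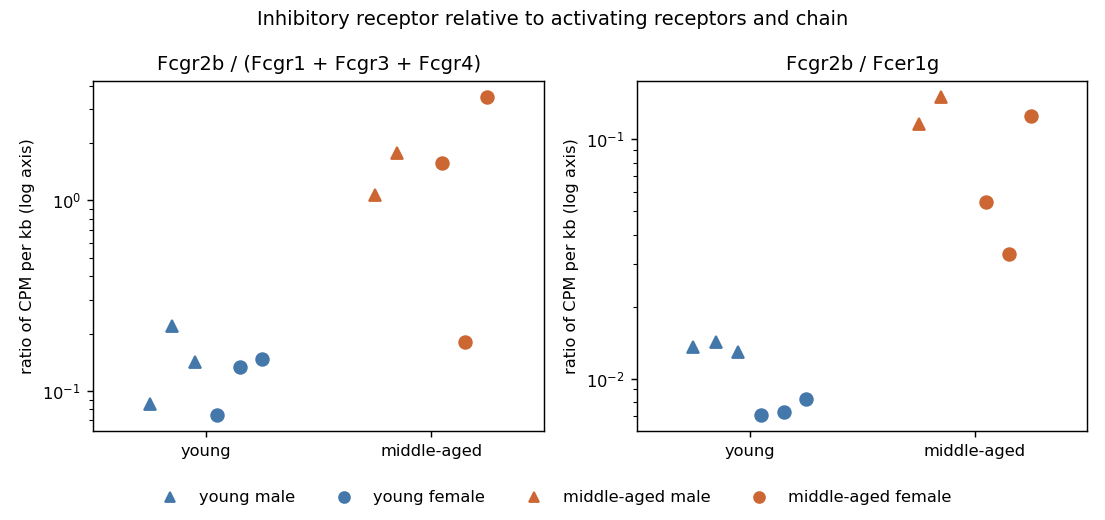
The left panel plots the ratio of Fcgr2b to the 3 activating receptor genes and the right panel its ratio to Fcer1g, both from CPM per kb on log axes, 1 point per library (triangles male, circles female). On the left, 4 middle-aged libraries lie between 1.07 and 3.49 and middle-aged female 2 (0.180) lies within the young range.

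Markers of other cells that carry these receptors were measured in the same libraries. The 10 B cell markers summed to 135 to 434 CPM in young and 182 to 638 CPM in middle-aged libraries, and Cd79a and Cd79b were above 0 in all of them. The library with the most Fcgr2b, middle-aged male 1, had the lowest B cell marker sum of the middle-aged libraries (182 CPM), and middle-aged female 2, with the least, had the highest (638 CPM). Per unit of B cell marker CPM, Fcgr2b was 0.0174 to 0.0453 in young and 0.0465 to 0.323 in middle-aged libraries. These ranges did not overlap, though middle-aged female 2 (0.0465) was next to the highest young library, and without it the middle-aged range began at 0.0762. Against Cd79a alone the ratio was 0.0894 to 0.343 in young and 0.313 to 1.83 in middle-aged libraries, which overlapped, and 0.422 to 1.83 without middle-aged female 2, which did not.

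The 14 monocyte and macrophage markers ran from 37.4 to 332 CPM in young and from 95.4 to 348 CPM in the middle-aged libraries other than female 2. Of the genes that define macrophages or monocytes, Lyz2, C1qb and C1qc were above 0 in every library and C1qa was at 0 in 1. Per unit of this sum, Fcgr2b was 0.0257 to 0.211 in young and 0.0243 to 0.447 in middle-aged libraries, which overlapped, with middle-aged female 2 as the lowest of all. Fcgr3 per unit of the same sum was 0.0464 to 0.380 in young and 0.0310 to 0.0495 in middle-aged libraries. The part of monocytes, macrophages and neutrophils in the Fcgr3 and Fcgr4 values of middle-aged female 2 was not tested. The 5 plasma cell markers summed to 1.99 to 21.1 CPM in young and 19.7 to 205 CPM in middle-aged libraries. The 10 dendritic cell markers summed to 149 to 474 CPM in young and 257 to 1019 CPM in middle-aged libraries. Both sums were highest in middle-aged female 2, and the next highest middle-aged sums were 47.9 and 529 CPM. The part of plasma and dendritic cells in Fcgr2b was not tested.

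The 7 NK cell markers, of which 6 passed the filter and several can also be expressed by CD8+ Tregs, summed to 296 to 795 CPM in young libraries. They summed to 64.6 to 148 CPM in 4 middle-aged libraries and to 509 CPM in middle-aged female 2. The list was Ncr1, Klrb1c, Gzma, Clnk, Adamts14, Cma1 and Khdc1a. Gzma alone had 215 to 471 CPM in young and 23.5 to 333 CPM in middle-aged libraries. Much of the young sum was thus Gzma, and the sum is not a measure of NK cells alone. Clnk went the other way, with 0 to 4.03 CPM in young and 2.09 to 8.25 CPM in middle-aged libraries. Fcer1g per unit of the marker sum was 0.174 to 0.240 in young and 0.266 to 1.18 in middle-aged libraries, without overlap. The part of NK cells in Fcer1g was not tested.

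**Figure D3:**
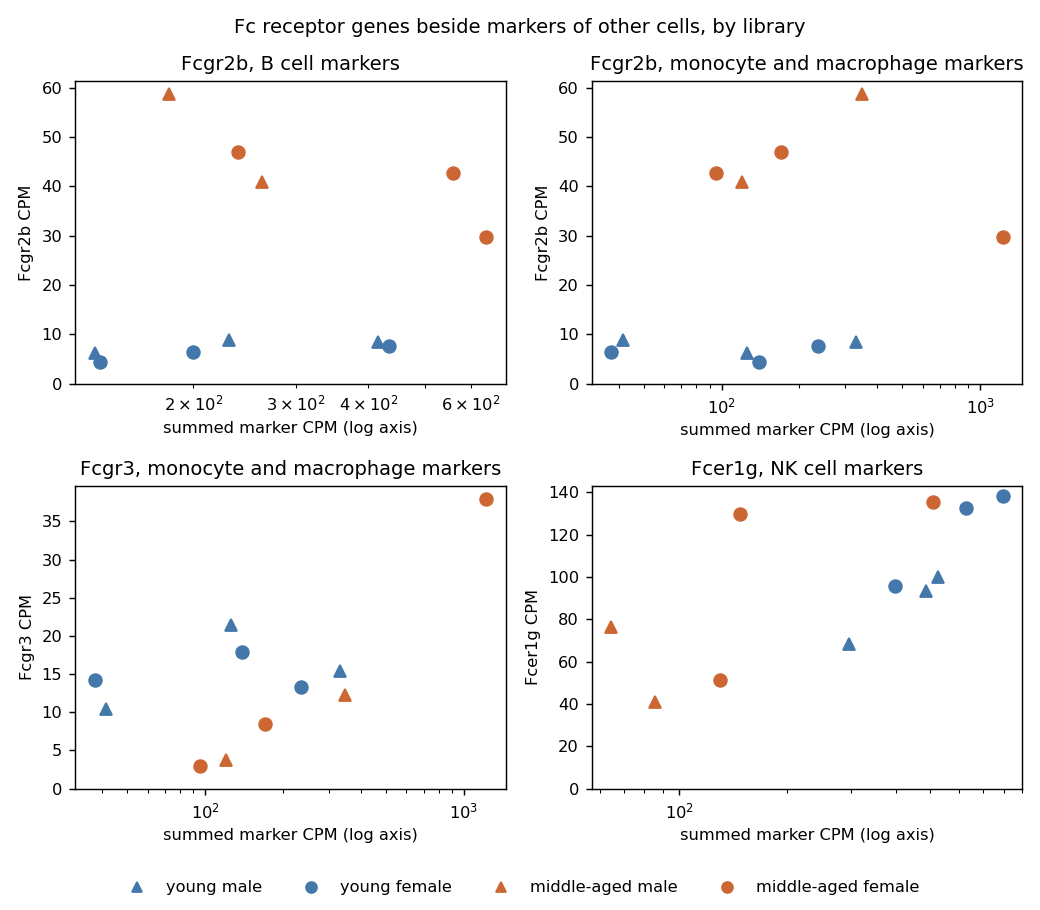
Each point is 1 library, with the summed CPM of a marker list on the horizontal log axis and the CPM of Fcgr2b (top, against B cell and against monocyte and macrophage markers), Fcgr3 (bottom left) or Fcer1g (bottom right) on the vertical axis. The 3 middle-aged libraries (orange) with B cell marker sums inside the young range, 182 to 263 CPM, have 41.0 to 58.6 CPM of Fcgr2b, and young ones (blue) at most 8.77 CPM, while the far right point of the Fcgr3 panel is middle-aged female 2.

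Sex was a comparison that the choice of genes did not use. In edgeR's model with age, none of the 5 tested genes was called for sex (0 of 5, where 0.0381% of tested genes were called), and 1 had an unadjusted p under 0.05, as did 0.754% of tested genes. That gene was Fcer1g, with a female over male log2 fold change of 0.64 (SE 0.29, edgeR adjusted p = 1.00). It had 41.1 to 99.8 CPM in 5 male libraries (mean 75.8 ± 23.2, SD) and 51.4 to 138 CPM in 6 female libraries (mean 114 ± 34.3, SD), so the sexes overlapped. An exact 2-sided permutation test over the libraries that ignored age gave an adjusted p of at least 0.714 for every gene, but its null spread holds the age differences of Fcgr2b and Fcgrt. With sex permuted within each age group, a test added after seeing the data, the mean female minus male difference in log2 CPM was 0.64 for Fcer1g, -0.35 for Fcgr2b and -0.65 for Fcgrt (exact permutation test, adjusted p = 0.26 for each over the 6 genes, smallest possible unadjusted p = 0.005). For Fcgr2b this difference was -0.36 in young and -0.33 in middle-aged libraries. DESeq2 and limma voom also called 0 of these genes for sex.

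The age difference itself was compared between the sexes by an interaction term, and edgeR called 0 of the 5 genes (0% of all tested genes were called), with 0 at an unadjusted p under 0.05, where 1.2% of all tested genes were, and 0 called by DESeq2 or limma voom. For Fcgr2b the female minus male difference in log2 fold change was 0.03 (SE 0.55, adjusted p = 1.00), with values of 2.67 in males and 2.70 in females. Fcgrt had the smallest p of the 5, with a log2 fold change of 2.20 (SE 0.35) in males and 1.18 (SE 0.36) in females and a difference of -1.03 (SE 0.48, edgeR adjusted p = 1.00). For Fcgr3 the difference was 1.10 (SE 1.22) and for Fcer1g 0.36 (SE 0.60). With SE of this size, sex differences of the age effect were not measured closely.

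Genes below the inhibitory receptor were measured as a list of 12, and none was called for age by edgeR, DESeq2 or limma voom, with 0 at an unadjusted p under 0.05. The median log2 fold change of the list was 0.11, beside 0.00 over all tested genes, with 9 positive and 3 negative values. Ptpn6, the gene of the phosphatase SHP-1, was the most abundant per length (298 CPM per kb over 11 libraries) with 858 ± 180 CPM in young libraries (SD) and 809 ± 171 in middle-aged ones. Inpp5d, which encodes SHIP-1, the phosphatase that the FcγRIIB tail recruits, had 158 ± 80.6 CPM in young libraries and a log2 fold change of -0.02 (SE 0.47), or -0.07 without middle-aged female 2. The 5 genes with the smallest p were the adaptor genes Grb2 (0.23, SE 0.17), Shc1 (0.30, SE 0.28), Dok3 (0.94, SE 1.14, and 0.45 without middle-aged female 2) and Dok2 (0.14, SE 0.21) and the Ras inhibitor gene Rasa1 (-0.25, SE 0.38), given as log2 fold changes.

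Of the 28 genes that act with or below Fcer1g and other ITAM chains, 27 were tested and edgeR called none, with 0 at an unadjusted p under 0.05 and a median log2 fold change of 0.06. Their signs were split, 14 positive and 13 negative. Tyrobp, the gene of the related ITAM chain DAP12, had the smallest p, with a log2 fold change of -0.88 (SE 0.45, edgeR adjusted p = 1.00). It ranged from 49.5 to 172 CPM in young libraries, from 30.1 to 47.9 CPM in 4 middle-aged libraries and reached 188 CPM in middle-aged female 2, without which edgeR's log2 fold change was -1.53. DESeq2 called no gene of the list, and limma voom, which gives libraries quality weights, called Tyrobp with a log2 fold change of -1.53 (SE 0.32, adjusted p = 0.0463). Next by p were Bcl10 (0.24, SE 0.17), which links these receptors to NF-κB, the kinase genes Fyn (0.38, SE 0.28) and Fgr (0.52, SE 0.40, and 0.19 without middle-aged female 2) and the PI3 kinase subunit gene Pik3r1 (-0.30, SE 0.25), given as log2 fold changes. Lck, the kinase of T cell receptor signaling, was the most abundant per length (926 CPM per kb), and Syk, the kinase that Fcer1g recruits in myeloid cells, had 18.5 ± 19.1 CPM in young and a mean of 18.4 CPM in middle-aged libraries.

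Of 13 other immunoglobulin receptor genes, 6 passed the filter, and edgeR, DESeq2 and limma voom called 0. One of them, Fcrl5, a receptor of B-lineage cells, had an unadjusted p under 0.05 (log2 fold change 3.66, SE 1.53, edgeR adjusted p = 1.00). Its level was 0.385 ± 0.520 CPM (SD) in young libraries and a mean of 3.47 CPM in middle-aged ones, and the groups overlapped. Without middle-aged female 2 its log2 fold change was 2.75. Trim21, a cytosolic antibody receptor and the most abundant of the list per length (19.4 CPM per kb), had a log2 fold change of 0.25 (SE 0.24). Fcmr, the IgM receptor, had 0.32 (SE 0.83), the B cell gene Fcrla, also among the B cell markers, 0.28 (SE 0.84, and 0.06 without middle-aged female 2) and Fcer2a, the low-affinity IgE receptor CD23, -0.25 (SE 0.91). The median over the 6 was 0.27.

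**Figure D4:**
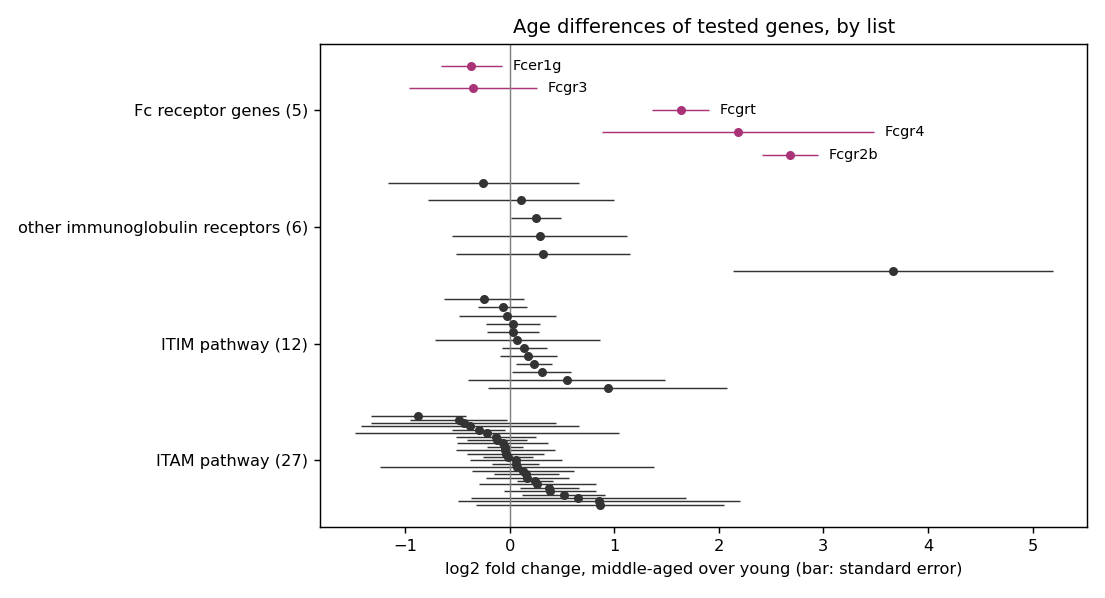
Points are fitted log2 fold changes of middle-aged over young libraries (horizontal axis) with their standard errors, for the 5 tested Fc receptor genes (named) and for the tested genes of the 3 lists. Fcgr2b (2.68) and Fcgrt (1.63) lie to the right with short error bars, the ITIM and ITAM lists lie around 0, and the far right point of the other immunoglobulin receptors is Fcrl5 (3.66).

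Fcgr2b, Fcgr4 and Fcgr3 lie side by side on chromosome 1, so the genes within 250 kb of Fcgr2b were compared. The window held 26 genes, of which 11 passed the filter and 1, Fcgr2b itself, was called for age. The log2 fold changes of the other tested genes were -0.09 (SE 0.85) for Atf6, 0.00 (SE 0.40) for Dusp12, 0.28 (SE 0.84) for Fcrla, 0.00 (SE 0.70) for Gm2962, 0.33 (SE 0.93) for Gm10522, -0.71 (SE 1.23) for Cfap126, 0.23 (SE 0.31) for Sdhc and 0.15 (SE 0.37) for Tomm40l, beside those of Fcgr4 and Fcgr3 above. The antisense gene Gm38204, which overlaps the start of Fcgr2b, had 28 counts over all libraries, and whether the counting used strand was not given in the sources used here.

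**Figure D5:**
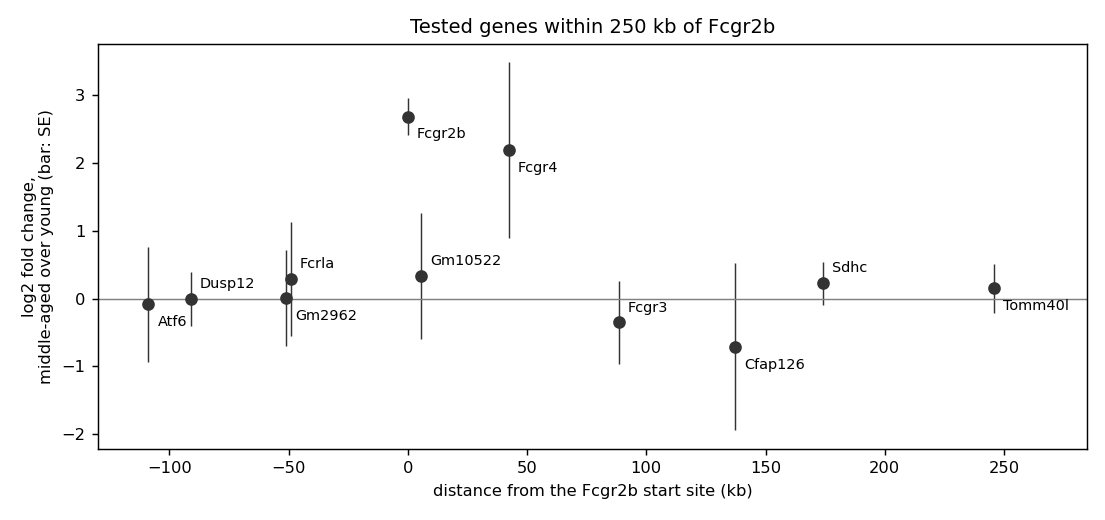
The 11 tested genes within 250 kb of Fcgr2b are placed by the distance of their start site from that of Fcgr2b (horizontal axis, kb) and their log2 fold change, middle-aged over young (vertical axis, bars give SE). Fcgr2b (2.68, SE 0.27) stands above its neighbours, and Fcgr4, 42.4 kb away, has a wide error bar (2.18, SE 1.30).

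RefSeq promoter windows (GRCm38.p6, 250 bases before to 50 after the start, minus strand, 5′ to 3′) are shown for Fcgr2b, which differed with age, and for its neighbour and relative Fcgr3. All 6 genes matched the promoter table. Capitals mark GAGGAA on either strand, the core letters that the myeloid and B cell factor PU.1 binds.
Fcgr2b, chr1:170976022-170976321: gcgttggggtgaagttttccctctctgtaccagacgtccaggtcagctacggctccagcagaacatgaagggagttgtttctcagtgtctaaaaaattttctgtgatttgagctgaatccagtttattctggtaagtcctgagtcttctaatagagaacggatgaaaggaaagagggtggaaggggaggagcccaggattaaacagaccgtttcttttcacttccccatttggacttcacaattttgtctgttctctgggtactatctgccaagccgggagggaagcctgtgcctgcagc
Fcgr3, chr1:171059354-171059653: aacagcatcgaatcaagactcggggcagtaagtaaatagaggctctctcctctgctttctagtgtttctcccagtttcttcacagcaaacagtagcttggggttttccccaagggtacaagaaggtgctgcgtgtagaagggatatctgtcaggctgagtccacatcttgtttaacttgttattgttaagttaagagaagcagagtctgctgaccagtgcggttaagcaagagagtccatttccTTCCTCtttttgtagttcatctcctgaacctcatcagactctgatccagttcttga
The promoters of the 3 activating receptor genes Fcgr1, Fcgr3 and Fcgr4 each held GAGGAA, and those of Fcgr2b, Fcer1g and Fcgrt held none, while 28.3% of 32851 promoters of this length did. TTCNNNGAA, a STAT-type palindrome, was found in Fcgr1 alone (8.30% of all promoters) and TGACTCA, an AP-1 site, in none of the 6 (5.20% of all promoters). These matches are letters in a window and not binding sites.

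Within an age group, the genes varied together in part. After the mean log2 CPM of each age group was subtracted, the Pearson correlation over 11 libraries was 0.62 for Fcgr3 with Fcer1g, the receptor and its chain, 0.75 for Fcer1g with Tyrobp and 0.82 for Fcgr4 with the macrophage gene Csf1r. Fcgrt ran the other way from Fcer1g (-0.64). Fcgr2b had 0.40 with Csf1r and -0.38 with Fcgr3. The points share library, depth and cell makeup, and these values are descriptions.

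The genes most like each receptor gene by this measure, among about 9487 genes with a mean of at least 5 CPM, were listed with r over 11 libraries. For Fcgr2b they were Hsf4 (0.96, and at least 0.94 with any 1 library left out), Pde2a (0.93), Arfrp1 (0.91), Eid2 (0.87) and Mzt1 (0.86). For Fcgr3 they were Lgals3 (0.93), Scimp (0.90), Ctsb (0.89), Cenpa (0.89) and Lyz2 (0.87). Of these, Lyz2 encodes lysozyme and Ctsb the protease cathepsin B, and with any 1 library left out the lowest r was 0.65 for Cenpa, 0.71 for Lyz2, 0.78 for Lgals3 and 0.79 for Scimp and Ctsb. For Fcgr4 they were Esrra (0.94), Dnajb14 (0.91), Adgre1 (0.88), Igsf6 (0.87) and Igsf8 (0.85), of which Adgre1 encodes the macrophage marker F4/80. For Fcer1g they were Klrb1c (0.86), which encodes NK1.1, 1110032A03Rik (0.83), Dok1 (0.79), Fuca2 (0.79) and Tfcp2 (0.79). For Fcgrt they were Eif4a2 (0.88), Aaed1 (0.86), the chemokine receptor gene Cxcr3 (0.85), Stx1a (0.83) and Pitpnm2 (0.82).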

How the data were processed

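RNA of sorted CD8+ Tregs from 11 mouse spleen samples was extracted with a Zymo kit, made into libraries with a Takara SMARTer kit and sequenced. The authors deposited counts per Ensembl gene (54532 genes, whole numbers, not normalized), and the submitters' processing notes name kallisto and mm10 without their role. All sample columns were used.

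Counts were analysed in R 4.3.3 with edgeR 4.0.16: TMM factors, filterByExpr on age (minimum count 10, minimum total 15), robust glmQLFit and then glmQLFTest for age (sex in the model), for sex (age in the model) and for their product. Benjamini-Hochberg adjustment ran over 13129 genes, which were called at an adjusted p under 0.05. The edgeR p-values set a fold change against the spread between these libraries, estimated with information from all tested genes. Fold changes are middle-aged over young, log2 CPM used a prior count of 2, and lengths came from the deposited table. Alternatives included DESeq2 1.42.0, limma 3.58.1 (voom with quality weights), other scalings, filters and sets of libraries. The 9 libraries with over 10000000 counts and the permutation of sex within age groups were added after seeing the data. The steps were tested on simulated data.

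The members and lists were chosen with earlier results of these data known. All 6 genes are named. From each list, called genes, the 5 with the smallest p and the most abundant per length are named, with Inpp5d, Syk and marker genes beside them, chosen after their values were seen. Tested genes within 250 kb of Fcgr2b and the 5 most correlated genes of each receptor are also named. Words of 31 bases were compared over all GENCODE M21 transcripts on both strands.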

Additional observations from a re-analysis of the deposited data

Results flagged for a closer look

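Fcgr3 had 37.9 CPM in middle-aged female 2, and the next highest of the 5 middle-aged libraries had 12.2 CPM, so that this library lay farther from the others than the spread of the group allows at the 95% level. It was the only one of 12 sets of values (6 genes in 2 age groups) to do so, and chance alone marks about 5% of such sets.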

How the results depend on the processing

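edgeR called 3 genes for age, and the count was 17 with at least 1 count in any library, 5 with at least 10 in every library, 112 in DESeq2, 138 in limma voom, 5 without the sex term, 6 in the 9 deeper libraries, 0 in males alone, 0 in females alone and 1 to 4 with each library left out. Of the 6 genes, 1 was called, and 2 were with at least 1 count in any library, in DESeq2 and in limma voom, 0 in males alone and 0 in females alone, both of which use fewer samples. The second gene was Fcgrt in each case. In the ITAM list the count of 0 was 1 in limma voom. With a replicate block shared by both sexes 19 genes were called, and with a replicate block within sex Fcgr2b was not (log2 fold change 2.70, adjusted p = 0.0836), so 0 of the 6 were. Taking the numbers as pairs required a correlation above 0.1 in every same-numbered pair. It was met in 4 of 5 (0.03 to 0.43), so the numbers were not taken as pairs. The values were centered within age and sex. With 2 middle-aged males, each young male then had correlations of equal size and opposite sign with them. Young male 1 had 0.32 and -0.32, so the 2 male pairs are not separate evidence. Not every library correlated best with its own number. The cutoff cannot show that libraries share only a number, because TMM factors followed the number in both ages. They were 0.855 to 0.931 in libraries numbered 1, 0.994 to 1.04 in those numbered 2 and 1.11 in those numbered 3. What the numbers stand for was not tested. Fcgr2b was positive in 26 of 26 alternatives, which include sums with other genes. The sum of Fcgr2b and Fcgr3 counts had a log2 fold change of 1.35 (edgeR adjusted p = 0.126). With Fcgr4 counts added as well, the sum had 1.38. The Fcgr3 log2 fold change was 0.13 in females alone and negative in the other 23 alternatives. The female minus male log2 CPM ran from -0.43 to 0.38 for Fcgr2b and from -0.23 to 0.55 for Fcgr3 with each library left out, on both sides of 0. These values ignore age, and leaving out a library changes the age mix of the sexes. Within age groups the mean difference was -0.35 for Fcgr2b and 0.26 for Fcgr3. Fcgr1 had at most 18 counts in a library and Fcgr4 at most 195. The causes of the other changes were not tested.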
